A study of Mus musculus with 4 samples.

Results

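Of 20404 intermediate H4K16ac islands called in mouse embryonic stem cells (ESC) on chromosomes 1 to 19, 6333 (31.0%) had no island of neural progenitor cells (NPC) within 10 kb. These ESC-only intermediate islands away from NPC islands are described here. An island is a broad stretch of enriched windows called by SICER. An island was taken as intermediate when it was wider than 2000 bp, narrower than 8000 bp and below 200 H4K16ac reads per kb of island, a quantity called density. It was counted as away when it shared no base with an NPC island and lay more than 10 kb from the nearest one, edge to edge. The islands were thus chosen by their measured width, density and distance to NPC islands, and these values are given as descriptions. All positions are on mm9 and count from 1.

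NPC were 46c cells differentiated for 5 days with NB27 and Neuro2 supplements and sorted for GFP. ESC were undifferentiated cells of the same line, 46c, in which GFP was placed in the Sox1 gene, a gene switched on in early neural progenitors. Each cell type had 1 ChIP library, made from chromatin cut with micrococcal nuclease (MNase) with the same Millipore antibody against H4K16ac, and 1 library of MNase-digested input. The NPC list held 48278 islands with 24386370 reads, and the ESC list 40570 islands with 17935144 reads.

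Acetylation of lysine 16 of histone H4 neutralises a positive charge on the histone tail, which in vitro hinders the folding of nucleosome arrays into compact fibres. In mammals it is laid down mainly by the acetyltransferase MOF (Kat8), which works in the MSL and NSL complexes. In mouse ES cells the mark is known at active genes and enhancers.

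Since both ChIP libraries stood alone, no difference could be set against replicate spread, and no p-value was computed. Intervals are exact binomial or order-statistic 95% intervals that treat islands as independent draws, which neighbouring islands may not be. They cover counting error only, and none covers variation between cultures. The lists hold only reads inside called islands, so NPC reads under an ESC-only island are not known, and a stretch without an NPC island may still have carried the mark. The number of away islands was 10885 when only NPC islands of at least the median 313 reads were counted, 4178 at distances over 20 kb, and 3532 among ESC islands of at least the median 277 reads.

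The 6333 islands held 2145055 reads, 12.0% of the reads in ESC islands of all chromosomes. They covered 12.0% of the bases in ESC islands of chromosomes 1 to 19 only, so these shares have unlike denominators. Their width ranged from 2200 to 7800 bp with a median of 3200 bp, and their reads from 130 to 1462 with a median of 295. A single island of 295 reads has a counting error of 5.82%, whereas the median over these islands had a 95% interval of 291 to 300 reads. Density ran from 45.9 to 199.8 reads per kb, with quartiles of 71.7 and 114 around a median of 86.8. The set was therefore mostly of modest density, with a tail toward the limit. Islands of at least 120 reads per kb made up 20.6% (1307 islands), islands of 70 to 120 made up 57.9% (3669) and islands below 70 made up 21.4% (1357).

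The other intermediate ESC islands fell into 2 classes. In 5091 an NPC island lay within 10 kb without sharing a base, and 8980 were overlapped by an NPC island. The ESC-only islands away from NPC were the narrowest, with a median of 3200 bp, against 3400 bp in those near an NPC island and 4200 bp in those overlapped. The rule bears on this order, since a wider island has a larger span in which an NPC island can lie. Median density was 86.8 reads per kb (85.9 to 87.7) in the away islands, 84.0 (83.1 to 84.6) in the near ones and 81.3 (80.9 to 81.8) in the overlapped ones. The share with at least 120 reads per kb was 20.6% (19.6% to 21.7%) in the away islands, 13.6% (12.7% to 14.6%) in the near ones and 14.1% (13.4% to 14.9%) in the overlapped ones. The SD across islands was 30.9, 26.4 and 28.4 reads per kb in the same order, so that the classes overlapped widely.

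**Figure D1:**
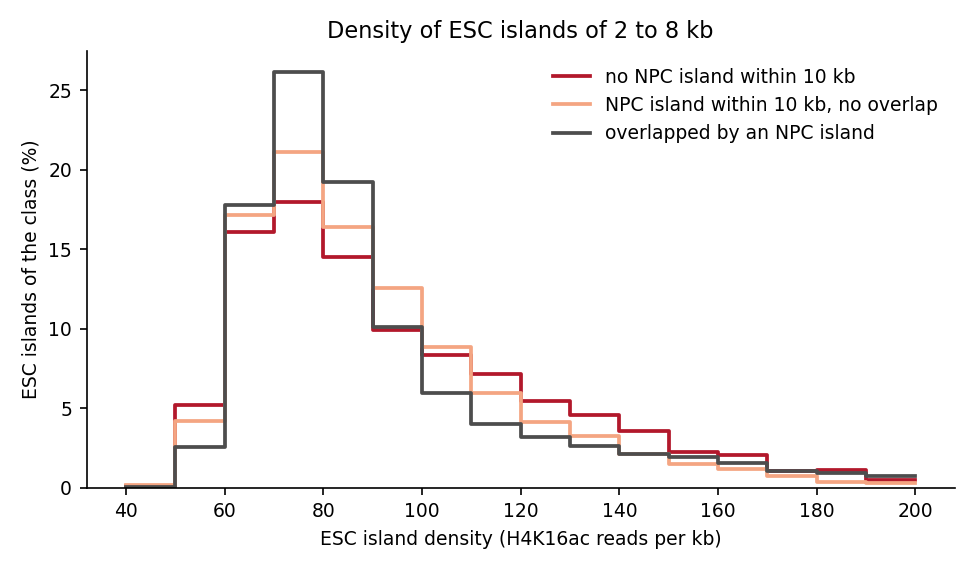
Percent of each class of ESC islands of 2 to 8 kb (vertical axis) by density in steps of 10 reads per kb (horizontal axis). The away islands had the lowest peak at 70 to 80 reads per kb. Their share was the highest from 110 to 190 reads per kb, and also at 50 to 60 (5.21%, against 4.18% in near and 2.54% in overlapped islands). From 190 reads per kb upward the overlapped islands had the highest share, 0.735% against 0.505% in away islands.

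The difference in density depended on width. Among the narrowest islands, of 2200 to 2400 bp, median density was 95.9 reads per kb in away islands, 92.1 in near ones and 89.2 in overlapped ones. At 3200 to 4000 bp the medians were 83.1, 82.2 and 82.6, nearly the same. Among islands of 6200 to 7800 bp they were 82.7, 78.2 and 78.0, and the share with at least 120 reads per kb was 19.6%, 7.05% and 7.30%. The away islands had the largest share of such dense islands in each of 6 width classes, with the smallest difference from the next class between 2200 and 2400 bp (25.5% in away islands and 24.0% in overlapped ones).

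The share of intermediate ESC islands that lay away from NPC islands fell with width. The rule bears on this, since a wider island has a larger span in which an NPC island would exclude it. How much of the fall follows from the rule was not tested. It was 45.1% (43.3% to 46.9%) at 2200 to 2400 bp, 32.5% (31.2% to 33.8%) at 3200 to 4000 bp and 15.7% (14.4% to 17.2%) at 6200 to 7800 bp. Over all widths on these chromosomes, 38.2% of 39508 ESC islands had no NPC island within 10 kb. That share was 64.4% at 2000 bp or less and 6.45% at 8000 bp or more, so the intermediate islands lay between the narrow and the broad ones.

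By density the share was lowest in the middle of the range. It was 42.9% (39.4% to 46.4%) below 60 reads per kb, 24.9% (23.7% to 26.2%) at 70 to 80 and 41.2% (38.8% to 43.7%) at 120 to 140. The same shape appeared within each of 3 width ranges. At 2200 to 3000 bp the away share was 44.2% below 70 reads per kb, 39.5% at 70 to 120 and 46.1% from 120 upward. At 5200 to 7800 bp it was 19.5%, 15.6% and 29.0%.

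**Figure D2:**
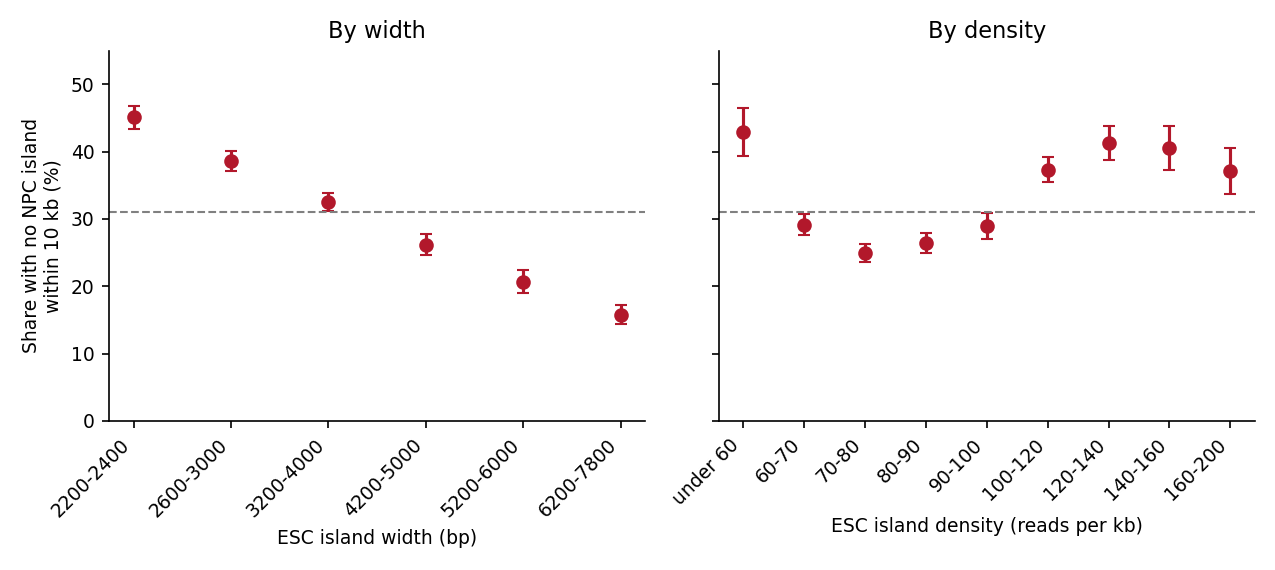
Share of intermediate ESC islands with no NPC island within 10 kb (vertical axis, percent) by island width in bp (left) and by density in reads per kb (right), with exact 95% binomial intervals as bars. The dashed line is the share over all intermediate islands, 31.0%. The share falls from 45.1% to 15.7% with width, on which the rule itself bears, and is lowest by density, at 24.9%, at 70 to 80 reads per kb.

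The away islands mostly lay within 50 kb of an NPC island, and some far beyond. The median distance was 29.0 kb, with quartiles of 16.8 and 60.2 kb. Of the 6333, 2155 lay 10 to 20 kb away, 2279 lay 20 to 50 kb away and 1011 lay 50 to 100 kb away. A further 888 (14.0%) were over 100 kb from any NPC island, 100 (1.58%) were over 500 kb away and 21 (0.332%) over 1000 kb. Density showed no steady trend with this distance. The median was 86.6 reads per kb at 10 to 20 kb, 87.2 at 50 to 100 kb and 85.4 at 200 to 500 kb, whereas the 79 islands at 500 to 1000 kb had 96.1 and the 21 beyond had 76.7. Median width was 3400 bp in the nearest bin and 3000 bp at 200 to 500 kb.

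ESC islands were also sparser around the away islands than around the near and overlapped ones. The rule did not use this measure, but it bears on it. An ESC island lying wholly within 10 kb of an away island cannot overlap an NPC island. How much of the difference follows from the rule was not tested. The nearest other ESC island was a median of 12.4 kb from an away island, against 5 kb from a near one and 5.20 kb from an overlapped one. Another ESC island lay within 10 kb of 44.0% (42.8% to 45.3%) of the away islands, 68.6% (67.3% to 69.9%) of the near ones and 64.8% (63.8% to 65.8%) of the overlapped ones. Within 2 kb the shares were 15.5%, 30.2% and 33.8%. At 10 kb, the share was lowest in away islands and highest in near ones in all 6 width classes. At 2200 to 2400 bp the share with an ESC neighbour within 10 kb was 35.9% in away islands, 58.6% in near ones and 56.6% in overlapped ones, and at 6200 to 7800 bp it was 57.5%, 79.9% and 74.5%.

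The neighbours differed as well, but the rule bears on this measure too. An ESC island lying wholly within 10 kb of an away island cannot overlap an NPC island, and broad ESC islands seldom lay far from NPC islands. Among autosomal ESC islands, 64.4% of those at most 2000 bp wide had no NPC island within 10 kb, against 6.45% of those at least 8000 bp wide. How much of the differences between neighbours follows from the rule was not tested. The nearest ESC island of an away island had a median width of 2800 bp, against 4000 bp in both other classes. It was broad, at 8000 bp or more, for 7.94% (7.29% to 8.64%) of the away islands, 19.01% (17.9% to 20.1%) of the near ones and 22.4% (21.5% to 23.2%) of the overlapped ones. Its median density was 96.7 reads per kb for away islands, 87.9 for near ones and 83.5 for overlapped ones. On the NPC side, the nearest NPC island was 3200 bp wide in the median for away islands and 4400 bp for near ones, with median densities of 74.4 and 75.9 reads per kb.

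Beyond 10 kb, NPC islands covered less of the flanks of away islands than of near or overlapped ones. The choice of islands also bears on this measure, since an NPC island that reaches within 10 kb cannot continue into the flank of an away island, and the other classes were defined by an NPC island close by. In the 100 kb on each side starting 10 kb from the island, NPC islands covered a median of 8.30% (7.90% to 8.80%) of bases around away islands, 25.5% around near ones and 27.3% around overlapped ones. ESC islands covered a median of 8.90% (8.53% to 9.20%) around away islands and 17.4% around each of the other classes. No NPC island at all fell in these flanks for 798 away islands (12.6%, 11.8% to 13.4%), against 0.982% of the near and 1.68% of the overlapped islands. NPC islands covered fewer flanking bases than ESC islands did around 50.8% (49.6% to 52.0%) of the away islands, 32.4% of the near ones and 29.6% of the overlapped ones.

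NPC cover around the away islands stayed below that around the near and overlapped ones out to 500 to 1000 kb, but from 20 kb outward it was not below the level of the chromosomes as a whole. Pooled over islands, NPC islands covered 6.71% of bases at 10 to 20 kb, 12.6% at 20 to 50 kb, 15.8% at 100 to 200 kb and 14.7% at 500 to 1000 kb from the away islands. In the last of these bins they covered 21.9% around near islands and 22.2% around overlapped ones. ESC cover around the away islands was 11.4% at 10 to 20 kb, 12.4% at 20 to 50 kb and 9.32% at 500 to 1000 kb. In the last bin it was 13.2% around each of the other classes. Over chromosomes 1 to 19, up to the last island of each, NPC islands covered 12.4% and ESC islands 7.68%. NPC cover relative to ESC cover was 1.58 at 500 to 1000 kb from the away islands and 1.61 over the chromosomes as a whole. Flanks of neighbouring islands overlap, so these pooled values are not independent.

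**Figure D3:**
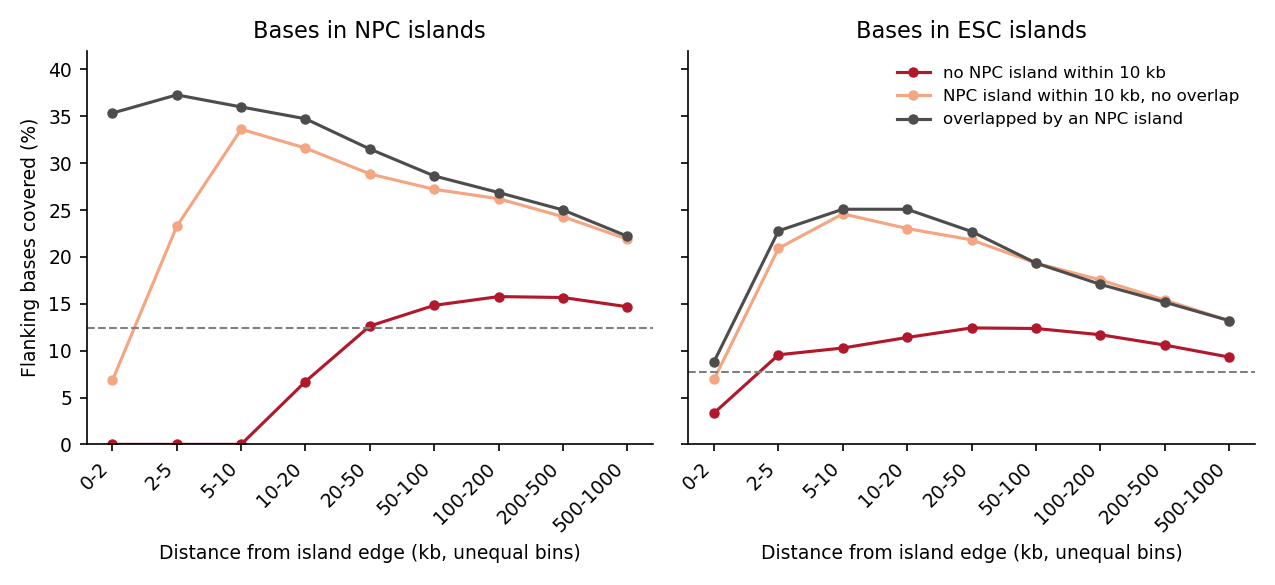
Percent of flanking bases in NPC islands (left) and in ESC islands (right) by distance from the edge of the ESC island in kb, in bins of unequal width, for the away, near and overlapped islands. Dashed lines give the cover of chromosomes 1 to 19. The NPC cover of 0 within 10 kb of the away islands is fixed by how they were chosen, and from 20 kb outward it stays between 12.6% and 15.8%, below both other classes.

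The sparse away islands had fewer close ESC neighbours than the rest. Islands below 70 reads per kb had a median width of 3800 bp, were 16.2 kb from the next ESC island in the median, and had an ESC neighbour within 10 kb in 36.7% (34.1% to 39.3%). Islands of 70 to 120 reads per kb were 11.8 kb from the next ESC island and had a neighbour within 10 kb in 45.9% (44.3% to 47.5%), nearly the same as the dense ones. Islands of at least 120 reads per kb had a median width of 3000 bp and 438 reads, a median distance of 11.4 kb to the next ESC island, and an ESC neighbour within 10 kb in 46.4% (43.6% to 49.1%). The nearest ESC island itself had at least 120 reads per kb for 24.3% (22.1% to 26.7%) of the sparse islands, 30.3% (28.8% to 31.8%) of those of 70 to 120 reads per kb and 34.7% (32.2% to 37.4%) of the dense ones. Distance to the nearest NPC island varied less, with medians of 32.2 kb for the sparse, 27.8 kb for the middle and 29.8 kb for the dense islands.

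Every autosome held such islands, in numbers from 208 on chromosome 17 to 454 on chromosome 2. As a share of intermediate ESC islands they ranged from 23.1% (20.4% to 26.0%) on chromosome 17 and 23.9% (21.7% to 26.3%) on chromosome 11 to 39.5% (36.1% to 42.9%) on chromosome 19 and 42.1% (38.9% to 45.3%) on chromosome 13. Chromosome 19 had the most per length, at 5.22 per Mb, and chromosome 1 the fewest, at 2.09 per Mb. The share was lower on chromosomes with more NPC cover. Over the 19 autosomes, Pearson's r was -0.76 and Spearman's rho -0.80, given as a description because both measures rest on the same NPC list. Chromosome 19 stood above chromosomes of like NPC cover. NPC islands covered 12.5% of it and 13.3% of chromosome 15, where the share was 30.9% (27.9% to 34.1%). Islands over 100 kb from any NPC island were most frequent on chromosomes 12 and 13, where they made up 27.1% (93 of 343) and 21.2% (82 of 387) of the away islands, and least frequent on chromosome 11, at 7.25% (24 of 331). On chromosome 13, 33 away islands lay in a single stretch of 1690.2 kb without an NPC island. On chromosome 12, 29 lay in a stretch of 3239.6 kb and 13 in a stretch of 1836.6 kb. How far the shares of these chromosomes rest on such single stretches was not tested.

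**Figure D4:**
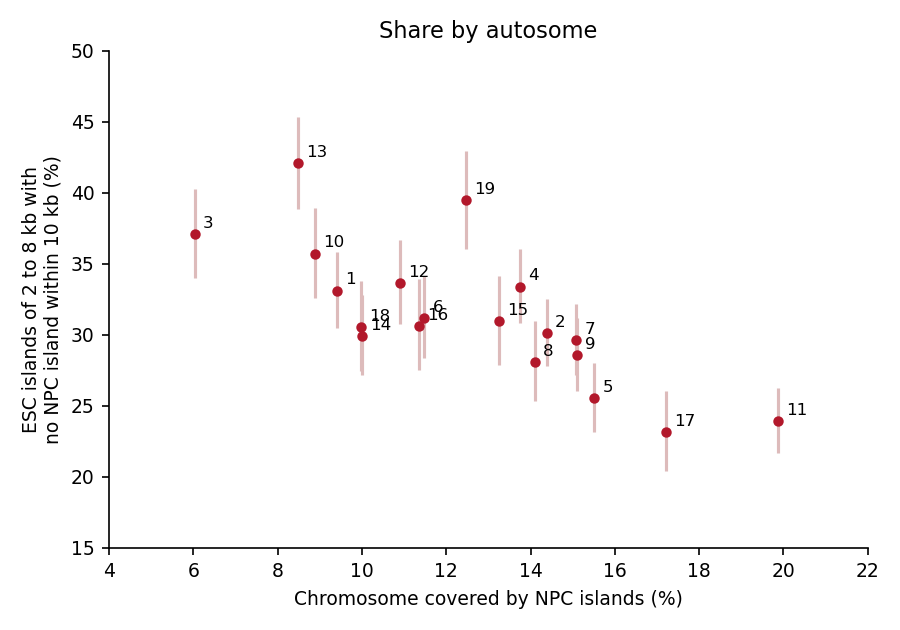
Share of intermediate ESC islands with no NPC island within 10 kb (vertical axis, percent, with exact 95% binomial intervals) against the percent of each chromosome covered by NPC islands (horizontal axis). Each point is 1 autosome, labelled with its number. The vertical axis starts above 0. Chromosome 13 is highest at 42.1% and chromosome 17 lowest at 23.1%.

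Most stretches that held an away island held only 1, but most away islands shared a stretch with another away island. The away islands fell into 3870 stretches bounded by NPC islands or by a chromosome end. Of these stretches, 2532 (65.4%, 63.9% to 66.9%) held 1 away island, 793 held 2 and 545 held 3 or more. Thus 2532 of the 6333 away islands were the only away island of their stretch. Stretches with 3 or more held 2215 of the away islands (35.0%, 33.8% to 36.2%). Leaving out 13 stretches open to a chromosome end, the median stretch was 90.8 kb long, with quartiles of 54.8 and 181 kb. In 983 stretches (25.4%, 24.0% to 26.8%) the away island was the only ESC island counted. ESC islands that shared a base with an NPC island were not counted, even where they reached into a stretch. This holds for all numbers and covers of ESC islands in stretches given below.

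The same stretches held 6005 other ESC islands that shared no base with an NPC island. Of these, 4413 (73.5%) were at most 2000 bp wide, and 2492 (41.5%) were both that narrow and at least 120 reads per kb. Another 419 (6.98%) were broad, and 1127 (18.8%) were intermediate islands within 10 kb of an NPC island. Over all 39508 ESC islands of chromosomes 1 to 19, 12913 were at most 2000 bp wide and 5950 were at least 8000 bp wide. The 6005 leave out the away islands and all ESC islands overlapping an NPC island, so their shares have another basis. How much of their make-up follows from these choices was not tested. At least 1 dense narrow island accompanied the away islands in 1240 stretches (32.0%), and at least 1 broad island in 337 (8.71%).

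The stretch with the most away islands lay on chromosome 13, from 65343001 to 67033200. Its 1690.2 kb held 33 of them among 60 ESC islands, of which 1 was broad and 8 were dense and narrow. Their density ranged from 58.2 to 168 reads per kb with a median of 97.4, and their reads from 156 to 765. These 60 ESC islands covered 9.64% of the stretch, and no NPC island lay in it. An ESC island overlapping the NPC island at its start also reached 1.8 kb into it and was not counted.

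**Figure D5:**
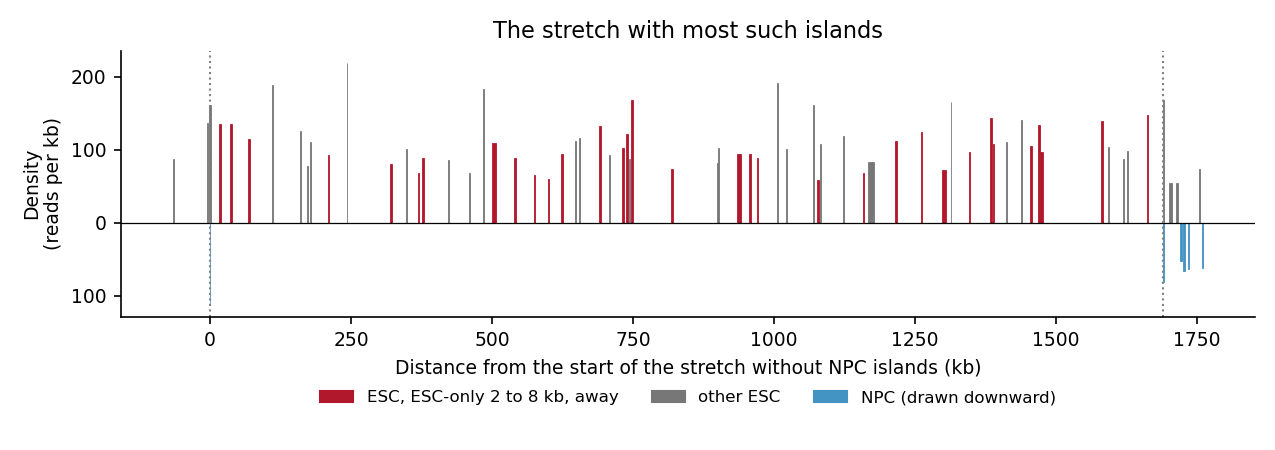
ESC islands (upward) and NPC islands (downward) in and around the chromosome 13 stretch, as density in reads per kb (vertical axis) against distance in kb from its start (horizontal axis). Dotted lines mark its ends. The 33 away islands are spread over 1647.4 kb among other ESC islands, and NPC islands lie only outside the stretch.

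The next stretches differed in how closely the islands were packed. On chromosome 12, from 17889801 to 21129400, 29 away islands lay in 3239.6 kb with a median of 79.8 reads per kb. On chromosome 4, from 145406201 to 146603800, 23 lay in 1197.6 kb and were denser, with a median of 119 reads per kb and 477 reads. On chromosome 3, from 96068601 to 96433400, 16 lay within 364.8 kb, or 4.39 per 100 kb, the closest packing of the 5. There ESC islands covered 28.1% of bases, and the density of the away islands ran from 71.7 to 185 reads per kb. On chromosome 12, from 115532001 to 117368600, 13 lay in 1836.6 kb with a median of 78.6 reads per kb. A contribution of repeated or duplicated sequence to the reads in these stretches, or in the islands named below, was not tested.

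The away islands with the most reads were wide and close to the density limit, which is largely fixed because reads are width times density and the rule caps both. The first lay on chromosome 1 at 37039601 to 37047400, with 1462 ESC reads in 7800 bp, or 187 reads per kb, 16 kb from the nearest NPC island and 25 kb from the nearest ESC island. The next was on chromosome 1 at 154937601 to 154944800, with 1431 reads at 199 reads per kb. It had ESC islands 2.40 kb to its left and 2.80 kb to its right, and no NPC island for 185.6 kb to its left and 16.6 kb to its right. The third, on chromosome 1 at 84842201 to 84849400, held 1346 reads at 187 reads per kb, and a broad ESC island of 10000 bp lay 2.60 kb away. The remaining pair lay on chromosome 12 at 74186801 to 74194200, with 1256 reads at 170 reads per kb, and on chromosome 2 at 152001801 to 152008600, with 1250 reads at 184 reads per kb. They were 51.0 and 43.2 kb from the nearest NPC island. All 5 had an ESC island within 25 kb.

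The densest islands were by construction just below the limit of 200 reads per kb. They included a 4600 bp island on chromosome 1 at 24618401 to 24623000, with 919 reads at 199.8 reads per kb, which was 140 kb from the nearest NPC island. The 3800 bp island on chromosome 5 at 54061001 to 54064800 held 759 reads at 199.7 reads per kb and lay 13.2 kb from an NPC island. The other 3 lay on chromosome 4 from 132907401, chromosome 1 from 63485801 and chromosome 13 from 26532401. Their surroundings were unlike. NPC islands covered 55.7% of the flanks of the island on chromosome 4 and 0% of those on chromosome 13, in the 100 kb on each side.

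The sparsest islands had 45.9 to 48.3 reads per kb. The lowest was on chromosome 9 at 72308201 to 72313800, with 257 reads in 5600 bp, 59.6 kb from the nearest NPC island. On chromosome 12 at 119503401 to 119509200, 270 reads lay in 5800 bp, or 46.6 reads per kb. The others lay on chromosome 13 from 10183401 and from 37329201 and on chromosome 16 from 46433001, with 221, 309 and 250 reads. The island on chromosome 16 had no NPC island for 1358.6 kb to its right.

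The farthest islands were more than 1000 kb from any NPC island. On chromosome 3, the island at 3000001 to 3004600 held 427 reads at 92.8 reads per kb. It was 3130.6 kb from the first NPC island of that chromosome and 314.4 kb from the next ESC island. No NPC or ESC island was called to its left, so both distances are to the right only. On chromosome 6, the island at 79233201 to 79235600 had 341 reads at 142 reads per kb and no NPC island for 2785.4 kb to its left and 2357.4 kb to its right. On chromosome 7, the island at 9176001 to 9182000 had 379 reads at 63.2 reads per kb, 1922.4 kb from an NPC island and 559.8 kb from an ESC island. The other 2, on chromosome 8 from 53920801 and on chromosome 12 from 19495601, had 307 and 277 reads and were 1742.2 and 1605.8 kb from an NPC island. In the 100 kb flanks of all 5, NPC cover was 0%, and ESC cover was 0% in the first 4 and 2.50% in the last.

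The longest stretch with NPC islands on both sides spanned 7515.4 kb of chromosome 7, from 39233601 to 46749000, and held 20 ESC islands, of which 6 were away islands. These did not fill it. ESC islands covered 1.95% of the stretch, and no ESC island was called over 7013 kb of it. Of the first 5 of these away islands by position, 4 lay between 39282001 and 39344600, where the nearest NPC island was 48.4 to 103.8 kb away, and the other began at 46357601. Their reads were 346, 683, 201, 439 and 259, at 60.97 to 94.9 reads per kb.

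Islands just inside the limits of the rule can be set beside those just outside. Among islands otherwise meeting it, 751 were 2200 bp wide with a median of 97.7 reads per kb, and 859 were 2000 bp wide with 97.5. At the upper limit, 21 were 7800 bp wide with a median of 80.5 reads per kb, and 30 were 8000 bp wide with 93.7. At 10200 bases from an NPC island there were 76 islands with a median of 89.7 reads per kb, and at 10000 bases there were 66 with 87.2. Just over the density limit, islands at exactly 200 reads per kb began at 119148801 on chromosome 14 and at 60654201 on chromosome 15, next to the densest islands named above. In all, 69 islands were left out by the density limit alone.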

How the data were processed

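H4K16ac ChIP-seq was analysed from 1 NPC and 1 ESC library. The submitters' processing notes name SICER 1.1 (the island caller), Bowtie 0.12.7 (the aligner), bedtools 2.10.1, SAMtools 0.1.7 and CASAVA 1.8.2, with build mm9. SICER's settings, from the names of the lists, were a false discovery rate of 0.01, a window of 200 bp and a gap of 600 bp. The lists give a whole number per island, read as the count of ChIP reads as deposited by the authors, not scaled to depth or input. Total library depth, duplicate removal and the use of input are not given in the sources used here. Ends were read as last bases, since widths and starts were then multiples of the window in 100% of islands.

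Distance is the number of bases between edges. Distances and covered bases were checked on 800 simulated islands (0 wrong), and bedtools 2.31.1 gave the same count of 6333 islands. Flanks stop at position 1 and at the last island of a chromosome. The rule, classes and named regions were chosen with earlier results of these data known. Named were the 5 islands with most reads, the densest, the sparsest, the farthest, those in the longest stretch, and the 5 stretches with most islands. Islands at the width and distance limits, of which many tie, are given as counts. Results by gene, promoter or base composition were not run, because no mm9 genome or annotation was used here. Alternatives covered distance, width and density limits, stricter lists and flank length. Python 3.11.15, numpy 2.4.6, pandas 2.3.3, scipy 1.17.1 and matplotlib 3.10.9 were used.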

Additional observations from a re-analysis of the deposited data

Results flagged for a closer look

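Chromosomes X and Y were outside the rule. On X, 174 ESC islands met the same width, density and distance limits, a signal in data the report did not use. They made up 86.6% (81.1% to 91.0%) of 201 intermediate ESC islands there, against 31.0% on chromosomes 1 to 19. Their median density was 110 reads per kb, 39.7% had at least 120 reads per kb, and the median distance to an NPC island was 474 kb. The NPC list had few islands outside chromosomes 1 to 19, which held 48170 of its 48278. The ESC list had 1046 islands on X. The away share and the distance on X were thus measured against few NPC islands. On Y, 2 of 2 intermediate ESC islands met the limits. Outlying samples could not be looked for among single libraries.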

How the results depend on the processing

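Other settings gave 27 values, of which 10 fell inside the 95% interval of the value in the report (for the count, within 1.5 times it) and 17 fell outside. Beyond what a setting fixes by its construction, the cause was not tested. No paired analysis was possible because each cell type had 1 library, and none could be left out. Gene and sequence results were not run. The count was 4178 for distances over 20 kb, 3532 with ESC islands of at least the median 277 reads, and 10885 with NPC islands of at least the median 313 reads. The share of intermediate ESC islands that were away was 40.4% over 5 kb, 20.5% over 20 kb, 32.4% with widths of 2000 and 8000 bp included, 27.0% with the stricter ESC list and 53.3% with the stricter NPC list, so the number of away islands rests on how weak an NPC island is counted. The share with an ESC island within 10 kb was 40.02% for distances over 20 kb, and 28.4% and 63.4% within 5 and 20 kb. Median NPC cover of flanks was 4.60% for distances over 20 kb, 6.10% with the stricter NPC list, and 6.40% and 11.5% with flanks of 50 and 500 kb. Median density was 88.1 reads per kb with both widths included and, in a setting chosen after seeing the data, 80 below 120 reads per kb.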

Other observations

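The mirror class in NPC was larger and more uniform in density. The same limits turned round gave 6333 away islands in ESC (31.0% of 20404, 30.4% to 31.7%) and 12563 in NPC (45.3% of 27709, 44.8% to 45.9%). Median density was 86.8 reads per kb in the ESC set and 71.8 in the NPC set, not scaled to depth. A density of 120 reads per kb was reached by 20.6% (1307) of the ESC set and 0.159% (20) of the NPC set. The share over all intermediate NPC islands was not computed, so low density is not shown to be particular to this NPC set. NPC islands of any width nearest to the near ESC islands had density quartiles of 68.5 and 84.4 reads per kb. The NPC set had a median width of 3800 bp and lay a median of 32.8 kb from an ESC island.

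Along the chromosomes, the away share of intermediate ESC islands was lowest toward the distal end. With each chromosome cut into 4 equal parts from position 1 to its last island, it was 32.4% (31.1% to 33.8%) in part 1, 35.0% in part 2, 30.5% in part 3 and 27.2% (26.1% to 28.4%) in part 4. Among the away islands, 18.4% in part 1 and 9.26% in part 4 were over 100 kb from any NPC island.

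Few stretches were well filled by ESC islands. In a search chosen after seeing the data, 3048 closed stretches of at least 50 kb with an away island had a median ESC cover of 5.57%, and 94 were covered by more than 30%. ESC islands that shared a base with an NPC island were left out of this cover. The highest cover was 72.0% on chromosome 9, from 114399001 to 114499600, where 8 ESC islands, 4 of them broad and 3 of them away islands, held 7264 reads in 72.4 kb without an NPC island. The next was 62.7% on chromosome 11, from 88250401 to 88319600, with 2 away islands among 5 ESC islands. On chromosome 6, from 124725201 to 124789200, 4 away islands with 400 to 475 reads each lay in 64 kb with an ESC cover of 55.3%.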
